A study of Homo sapiens with 3 samples.

Results

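This account describes the classic human miRNA hairpins numbered below 1000 that lie outside the large, separately treated groups. They were chosen by name from the annotation carried by the deposited clusters, without use of any measured value: every hairpin named hsa-mir-N on the sense strand was kept, except mir-7, mir-15 to mir-20, mir-25, mir-26, mir-30, mir-92, mir-93, mir-98, mir-103, mir-106, mir-107, mir-140, mir-195, mir-221, mir-222, mir-320, mir-363, mir-423, mir-451, mir-484, mir-504, mir-664, mir-744 and mir-877. The rule found 156 hairpins, of 396 hairpin names in all 4 deposited lists. The other 240 names, called the other hairpins here, hold the groups just named, the let-7 hairpins and the hairpins numbered 1000 and above.

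The study crosslinked DICER to RNA in living human cells by PAR-CLIP, with RNase T1 to shorten the bound RNA. All 3 libraries belonged to a single group, a Flp-In T-REx HEK293 line (embryonic kidney cells with an integrated transgene) carrying FLAG-tagged DICER, so the bound RNA is that of a transgenic protein. No control library and no measure of RNA abundance entered the analysis, so a high value cannot be told apart from an abundant RNA. The sources used here do not say whether the replicates were separate cultures, so the spread between them may be technical.

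In animal cells the Drosha nuclease cuts a hairpin out of a primary miRNA transcript, and DICER then cuts off the loop of that precursor to leave a duplex of a 5p and a 3p mature miRNA. DICER measures its cut from the open end of the precursor. In PAR-CLIP, cells take up 4-thiouridine, which crosslinks to protein under ultraviolet light and is read as a T-to-C conversion, so converted reads mark uridines that were bound. Bases 2 to 8 of a mature miRNA form the seed, which pairs with target mRNAs, and miRNAs with the same seed are grouped as a family.

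The mature miRNAs of some leading hairpins and families are shown first, with their seeds. The families described further on were written by hand, and not all members of each family share a seed. The seeds of miR-374b-5p and miR-374c-5p differ, for example, as do those of miR-182-5p and miR-96-5p. Capitals mark the seed (bases 2 to 8 from the 5′ end), and the sequences are from RefSeq (GRCh38.p14).
miR-331-3p: gCCCCUGGgccuauccuagaa
miR-21-5p: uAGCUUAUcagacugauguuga
miR-374b-5p: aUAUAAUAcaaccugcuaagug
miR-342-3p: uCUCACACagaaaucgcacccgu
miR-378a-3p: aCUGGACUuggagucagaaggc
miR-301a-3p: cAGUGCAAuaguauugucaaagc
miR-181a-5p: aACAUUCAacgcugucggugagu
miR-181c-5p: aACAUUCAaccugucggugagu
miR-29a-3p: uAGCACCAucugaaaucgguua
miR-29c-3p: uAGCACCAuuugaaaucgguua
miR-196a-5p: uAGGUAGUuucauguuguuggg
miR-196b-5p: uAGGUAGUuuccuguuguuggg
miR-424-5p: cAGCAGCAauucauguuuugaa

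Precursors of 3 families and of mir-342 follow, each running from the first base of the 5p miRNA to the last base of the 3p miRNA. They are shown because the authors' files mark 1 position in every cluster, and in these 10 precursors that position could be placed and was a uridine, set in capitals.
pre-mir-181a-1: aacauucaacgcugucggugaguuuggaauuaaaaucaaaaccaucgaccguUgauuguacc
pre-mir-181a-2: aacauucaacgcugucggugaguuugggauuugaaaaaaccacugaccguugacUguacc
pre-mir-181c: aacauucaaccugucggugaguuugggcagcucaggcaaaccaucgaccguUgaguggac
pre-mir-29a: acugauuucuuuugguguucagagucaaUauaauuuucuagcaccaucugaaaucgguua
pre-mir-29b-1: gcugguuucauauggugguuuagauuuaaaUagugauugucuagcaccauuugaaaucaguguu
pre-mir-29c: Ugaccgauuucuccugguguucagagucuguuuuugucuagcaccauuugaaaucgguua
pre-mir-196a-1: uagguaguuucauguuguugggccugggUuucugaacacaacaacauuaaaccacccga
pre-mir-196a-2: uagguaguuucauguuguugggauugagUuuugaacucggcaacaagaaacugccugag
pre-mir-196b: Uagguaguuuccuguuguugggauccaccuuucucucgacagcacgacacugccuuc
pre-mir-342: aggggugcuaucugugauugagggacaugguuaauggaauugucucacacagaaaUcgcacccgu

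These hairpins had a cluster, a stretch of overlapping converted reads, at 132 names in replicate 1, 128 in replicate 2 and 93 in replicate 3. Of the 154 names listed in any replicate, 82 (53.2%) were listed in all 3, where the background over all 386 hairpins listed in any replicate was 41.5%. A further 35 were in 2 replicates and 37 in 1 replicate. The remaining 2 names, mir-152 with 10 conversions and mir-449b with 4, appeared only in the authors' series-wide list, which also used reads from 2 or 3 replicates.

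The hairpins held 37577, 14041 and 8111 conversions in replicates 1, 2 and 3, of 1306125, 1060791 and 595487 over all listed clusters. Their distinct reads, which count identical reads once, were 3216, 2609 and 640, of 109404, 111514 and 29416 listed. Replicate 3 was thus the thinnest list. The values are sums over listed clusters and not sequencing depth, and reads without molecular identifiers are not independent molecules. These hairpins held 2.88%, 1.32% and 1.36% of all conversions in replicates 1, 2 and 3 (1.85% ± 0.886, SD, n = 3). Their share of all distinct reads was 2.94%, 2.34% and 2.18% (2.48% ± 0.402, SD, n = 3). Replicate 1 had the highest share on both measures.

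Among miRNA hairpins alone, these names took a larger part of the distinct reads than of the conversions. Their share of hairpin conversions was 18.1%, 10.7% and 9.89% in replicates 1, 2 and 3 (12.9% ± 4.51, SD, n = 3). Their share of hairpin distinct reads was 33.0%, 29.8% and 25.7% (29.5% ± 3.65, SD, n = 3). The distinct-read share exceeded the conversion share by 14.97, 19.1 and 15.9 percentage points (16.6 ± 2.16, SD, n = 3), in the same direction in 3 of 3 replicates. An exact two-sided sign-flip test gave p = 0.25, the smallest p that 3 replicates allow, and 0.5 after Benjamini-Hochberg adjustment over the 3 sign-flip tests made here. Pooled over each group, a distinct read was seen 13.3, 5.92 and 13.3 times in replicates 1, 2 and 3, against 28.9, 20.4 and 42.0 times for the other hairpins. The highest other hairpin alone held 72507, 40011 and 39618 conversions in replicates 1, 2 and 3. That is more than the 37577, 14041 and 8111 of all the hairpins described. The pooled shares and ratios thus lean on the largest of the other hairpins and do not describe the typical hairpin.

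The typical hairpin of this kind was read thinly. Its median number of distinct reads was 14, 9.5 and 4 in replicates 1, 2 and 3, against 6, 6 and 5 for the other hairpins. The highest values were 131, 104 and 49 distinct reads, against 560, 586 and 195 for the other hairpins. These names therefore had a higher median than the other hairpins in replicates 1 and 2 and a lower maximum in every replicate. The difference in the median of log2 conversions per distinct read, these hairpins minus the others, was 0.44, 0.07 and 0 in replicates 1, 2 and 3 (0.17 ± 0.24, SD, n = 3). The exact sign-flip p was 0.5, in a design whose smallest p is 0.25.

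Of the names found in all 3 replicates, the 10 that ranked highest by series-wide conversions held 43.4%, 35.8% and 34.9% of the hairpins' conversions in replicates 1, 2 and 3 (38.02% ± 4.63, SD, n = 3). The 10 with the most distinct reads, ranked the same way, held 28.2%, 28.3% and 33.4% of the distinct reads. The leading 20 held 63.0% ± 1.86 of conversions and 49.2% ± 1.13 of distinct reads. In the series-wide list, 6 names were among the leading 10 on both measures and 15 among the leading 20. Across the 82 hairpins in all 3 replicates, log2 conversions correlated with r = 0.802 between replicates 1 and 2, 0.631 between 1 and 3, and 0.787 between 2 and 3. These correlations are over hairpins that share a library, and hairpins are not independent replicates.

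**Figure D1:**
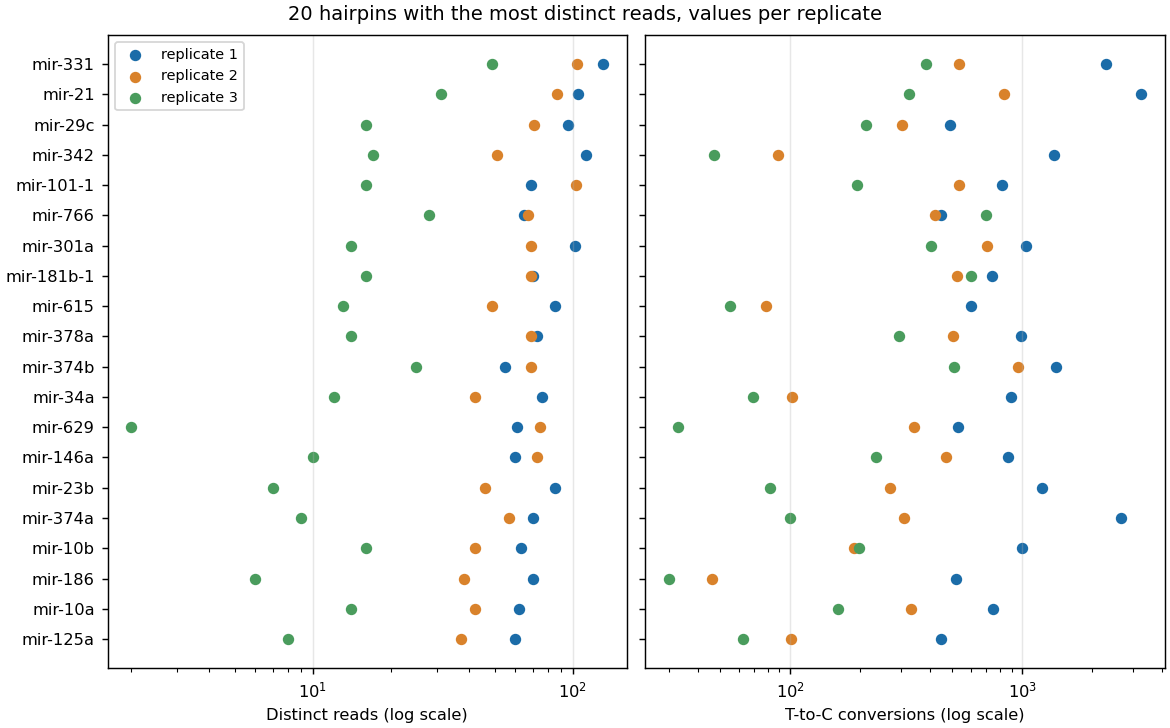
Distinct reads (left) and T-to-C conversions (right), both on log axes, for the 20 hairpins with the most distinct reads in the series-wide list among those found in all 3 replicates. Each point is 1 replicate. Replicate 3 gave the fewest distinct reads for every one of the 20, while for mir-766 it gave the most conversions (696, with 449 and 423 in replicates 1 and 2).

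The hairpin with the most distinct reads was mir-331, a single-copy hairpin on the plus strand at chr12:95702216-95702278 (hg19, as are all cluster positions here). It had 131, 104 and 49 distinct reads in replicates 1, 2 and 3, with 2294, 534 and 384 conversions. It ranked first in distinct reads in every replicate. mir-21, an abundant miRNA in many cultured cell lines that represses tumour suppressors such as PDCD4, lay at chr17:57918633-57918694 on the plus strand. It had 105, 87 and 31 distinct reads and 3250, 832 and 325 conversions, and its 3828 conversions were the most of these hairpins in the series-wide list. Its share of their conversions was 6.19% ± 2.33 (SD, n = 3), against 4.88% ± 1.16 for mir-331.

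Many of these hairpins sat in introns. The annotation in the files placed 107 of the 156 in an intron of a coding or noncoding gene, among them 56 of the 82 found in all 3 replicates. The same count over the other hairpins was not made. Whether a place in an intron is particular to these names or to the leading ones therefore cannot be told from these counts. mir-301a, in SKA2 at chr17:57228507-57228569 on the minus strand, had 102, 69 and 14 distinct reads and 1035, 705 and 403 conversions. mir-378a, in PPARGC1B, the gene of a coactivator of mitochondrial metabolism, had 73, 69 and 14 distinct reads and 988, 506 and 295 conversions. mir-342, in EVL at chr14:100576010-100576076 on the plus strand, had 112, 51 and 17 distinct reads. Its conversions were 1366, 89 and 47, so replicate 1 alone held most of them. The related sterol genes SREBF2 and SREBF1 host mir-33a and mir-33b, which repress the cholesterol exporter ABCA1. mir-33a had 347, 94 and 66 conversions, and mir-33b had 237, 40 and 34.

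Conversions per distinct read separated some of the names. Among hairpins with 10 or more distinct reads in every replicate, the highest ratios belonged to mir-424, mir-374b and mir-21, and the lowest to mir-615, mir-342 and mir-574. mir-374b had 25.4, 13.9 and 20.4 conversions per distinct read in replicates 1, 2 and 3. mir-615, an intronic hairpin of the HOXC locus, had 7.08, 1.61 and 4.23. The values of these 2 hairpins did not overlap in these replicates, and the choice of the extremes fixes that order. Among the same hairpins, the shares that differed most between replicates were those of mir-574 (10.9-fold between the highest and the lowest), mir-766 (7.18-fold) and mir-342 (6.27-fold).

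The families were described by their shares of the conversions of these hairpins, over the 33 families with a listed member. Family sizes differ, and none of the shares was tested. Of 83 hairpins in a family, the mir-374 family held the largest mean share, with 10.8%, 9.04% and 7.57% in replicates 1, 2 and 3 (9.15% ± 1.64, SD, n = 3). It comprises mir-374a and mir-374b in FTX, a long noncoding RNA gene of the X-inactivation centre, and mir-374c, which lies antisense to mir-374b. mir-374a had 2676, 311 and 100 conversions, and mir-374b had 1397, 958 and 510. mir-374c had 4 conversions in replicate 3 only. By distinct reads the family held 4.78% ± 0.870, and the mir-181 family (5.25% ± 1.32) and the mir-130/mir-301 family (4.87% ± 0.427) had higher means, within the spread between replicates.

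The mir-181 family, with members known for roles in T-cell signalling, had 6 listed hairpins, 4 of them in all 3 replicates, and held 3.87%, 6.14% and 8.52% of conversions in replicates 1, 2 and 3 (6.18% ± 2.32, SD, n = 3). In replicate 3 it was above the mir-374 family. mir-181b-1 led it with 745, 524 and 602 conversions. mir-181b-2 had 296, 248 and 16, and mir-181a-1 had 222, 48 and 6. mir-181c had 148, 19 and 67 conversions, mir-181a-2 had 14 and 23 in replicates 1 and 2, and mir-181d had 30 in replicate 1. The 5p miRNA of mir-181a-1 and mir-181a-2 has the same sequence, and so has that of the pair mir-181b-1 and mir-181b-2, so reads confined to it could come from either copy. How the authors assigned such reads was not stated, and the split within each pair is uncertain. A mature sequence is likewise shared by mir-24-1 and mir-24-2, mir-29b-1 and mir-29b-2, mir-101-1 and mir-101-2, and mir-196a-1 and mir-196a-2. The same holds, among others, for mir-9-1 and mir-9-2, mir-194-1 and mir-194-2, mir-365a and mir-365b, and mir-450a-1 and mir-450a-2. The split within these pairs is uncertain too.

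The mir-130/mir-301 family, which shares the seed AGUGCAA in the 4 hairpins matched to it, held 5.79% ± 1.39 of conversions with 5 listed hairpins. mir-301a accounted for most of them, while mir-454, also in SKA2, had 116, 32 and 69 and mir-301b had 158, 56 and 7. The mir-29 family, known to repress collagen genes, held 2.68% ± 0.782 of conversions but 3.93% ± 0.734 of distinct reads. mir-29c, at chr1:207975208-207975269 on the minus strand, had 490, 303 and 212 conversions from 96, 71 and 16 distinct reads. The other 3 were lower in every replicate: mir-29a had 86, 78 and 6 conversions, mir-29b-1 had 97 and 87 in replicates 1 and 2, and mir-29b-2 had 26, 12 and 6.

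Hairpins of the HOX loci, whose genes set position along the body axis, differed widely in conversions. mir-10a, annotated within HOXB3 and HOXB4, had 746, 332 and 161 conversions. mir-10b, its copy in the HOXD locus, had 996, 188 and 199. Together they held 4.26% ± 0.491 of conversions. mir-196a-2 had 29, 43 and 7 distinct reads in replicates 1, 2 and 3, and replicate 2 was its highest library, unlike most of the leading names. Its conversions in replicates 2 and 3 were 690 and 295. mir-196b had 171, 30 and 27 conversions, and mir-196a-1 had 93 and 40 in replicates 1 and 2.

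The mir-146 family, which is induced by inflammatory signalling and represses its adaptors, held 3.98% ± 0.487. mir-146a had 873, 472 and 234 conversions and mir-146b had 514, 166 and 67. mir-34a, a target of p53, had 898, 102 and 69 conversions. It was the only one of the 5 listed hairpins of the mir-34/mir-449 family found in all 3 replicates, and mir-34c, mir-449a, mir-449b and mir-449c had between 0 and 29 conversions in each replicate.

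Polycistrons, hairpins cut from the same transcript, were approximated as runs of neighbouring hairpins on the same strand with gaps of at most 10 kb. There were 17 runs with 2 or more of these hairpins, and their 47 names held 27.95% ± 2.49 of conversions and 29.6% ± 2.40 of distinct reads. Hairpins of the same run often differed widely. In the run mir-450a-1, mir-450a-2, mir-542, mir-503 and mir-424, mir-424 had 800, 368 and 229 conversions and mir-503 had 288, 99 and 32. The rest had no conversions in replicate 3, with 34, 43 and 235 in replicate 1 for mir-450a-1, mir-450a-2 and mir-542. mir-424 has the seed AGCAGCA, and mir-424 and mir-503 are known for slowing the cell cycle.

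The run mir-23b, mir-27b and mir-24-1, in C9orf3, had 1213, 552 and 285 conversions in replicate 1, 269, 107 and 148 in replicate 2, and 82, 12 and 17 in replicate 3. mir-23b was the highest of the run in each replicate. The paralogous run mir-23a, mir-27a and mir-24-2 was lower than it in replicates 1 and 2, while in replicate 3 mir-27a and mir-24-2 were above mir-27b and mir-24-1. mir-23a had 10 conversions in replicate 1 only, mir-27a had 2 and 18 in replicates 2 and 3, and mir-24-2 had 54, 18 and 29. In the run of mir-374b and mir-421, mir-421 had 4 conversions, in replicate 2. The sensory-organ run mir-182, mir-96 and mir-183 held 0.847% ± 0.421 of conversions, with 83, 30 and 89 for mir-182. The long run in CLCN5 on the X chromosome had 8 listed hairpins, 3 of them in all 3 replicates, and held 0.843% ± 0.372.

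Hairpins known mainly from other tissues were looked up in hand-written lists, chosen with earlier results of these data known. Of 51 hairpin numbers in lists for muscle, liver, brain, blood, endothelium, epithelium, pluripotent cells, eye, pancreas and placenta, 9 were listed. Placenta accounts for 14 of the 51. The share listed over all hairpin numbers below 1000 was not counted, so 9 of 51 has no background. The lists are not complete, and the sensory-organ run described above is not in them. The 9 numbers held 1.31%, 1.27% and 2.03% of the conversions of the hairpins described in replicates 1, 2 and 3. The brain list had 4 of its 7 numbers listed, as 6 hairpins, with 0.0905%, 0.506% and 1.60% of conversions in replicates 1, 2 and 3. Most of this in replicates 2 and 3 was mir-138-1, with 49 and 92 conversions there and none in replicate 1. The lists for liver, pluripotent cells, eye, pancreas and placenta had 0 listed. The 3 hairpins of these lists found in all 3 replicates were mir-141 (epithelium) with 19, 15 and 10 distinct reads, mir-9-2 (brain) with 3, 4 and 2, and mir-499a (heart and slow muscle, in MYH7B) with 3, 2 and 2. Reads confined to a mature sequence of mir-9-2 could also come from mir-9-1. mir-142, a marker of blood cells, had 125 and 23 conversions in replicates 1 and 2.

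The clusters were compared with the precursors themselves. RefSeq entries matched 146 of the 156 names, and 114 had both mature miRNAs, which lay 48 to 68 nt apart at their outer ends (median 60 nt). A hairpin was called spanned at precursor length when the outer span of its clusters was within 3 nt of that distance. This was so for 58 of 98 hairpins in replicate 1 (59.2%), 51 of 94 in replicate 2 (54.3%) and 20 of 69 in replicate 3 (28.99%). In the series-wide list it was 71 of 98 (72.4%). A single cluster ran the whole length in 52 of the 58, 40 of the 51 and 10 of the 20, and the rest had separate clusters towards both ends. The shorter clusters had a median of 31.5, 33 and 28 nt in replicates 1, 2 and 3.

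**Figure D2:**
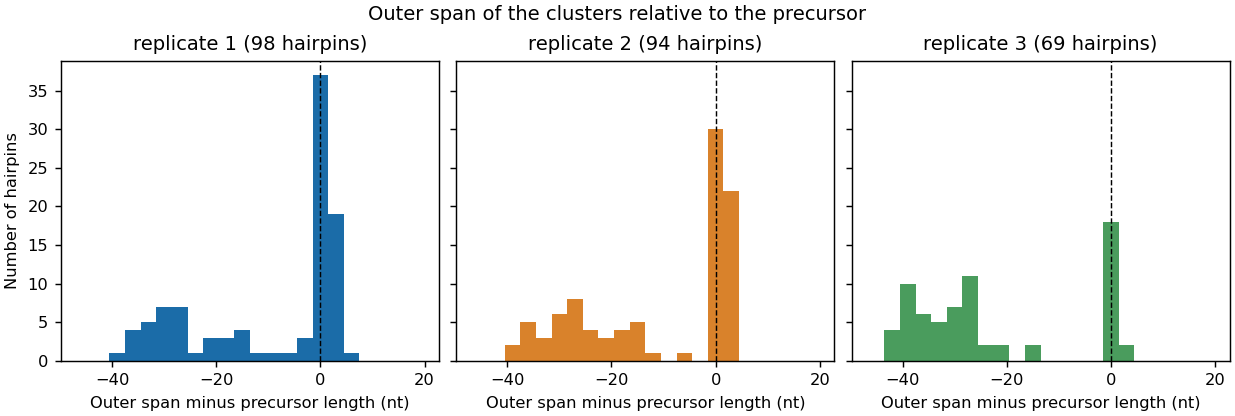
Number of hairpins by the outer span of their clusters minus the precursor length, in nt, for each replicate. The dashed line marks equal length. A peak at the line and a broad group of shorter spans are seen in each replicate, and the shorter group is the larger in replicate 3 (20 of 69 hairpins within 3 nt of the line).

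Among the other hairpins, 44 of 123 (35.8%), 34 of 112 (30.4%) and 22 of 74 (29.7%) were at precursor length in replicates 1, 2 and 3. The difference, these hairpins minus the others, was 23.4, 23.9 and -0.744 percentage points (15.5 ± 14.1, SD, n = 3). The exact sign-flip p was 0.5, with a higher share in 2 of 3 replicates. The share moved with the number of distinct reads. Among these hairpins with under 10 distinct reads, 24.3%, 28.9% and 17.0% were at precursor length in replicates 1, 2 and 3, against 12.1%, 3.57% and 6.25% of the other hairpins. With 10 to 29 distinct reads the shares were 77.4%, 69.2% and 66.7%, against 33.3%, 40.9% and 81.8%. With 30 or more they were 83.3% and 87.0% in replicates 1 and 2, against 80.6% and 67.6%. In replicate 3 only 1 of these hairpins had 30 or more distinct reads, and the bin of 10 to 29 held 15 of them and 11 of the others. The part of depth in the difference was not tested.

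**Figure D3:**
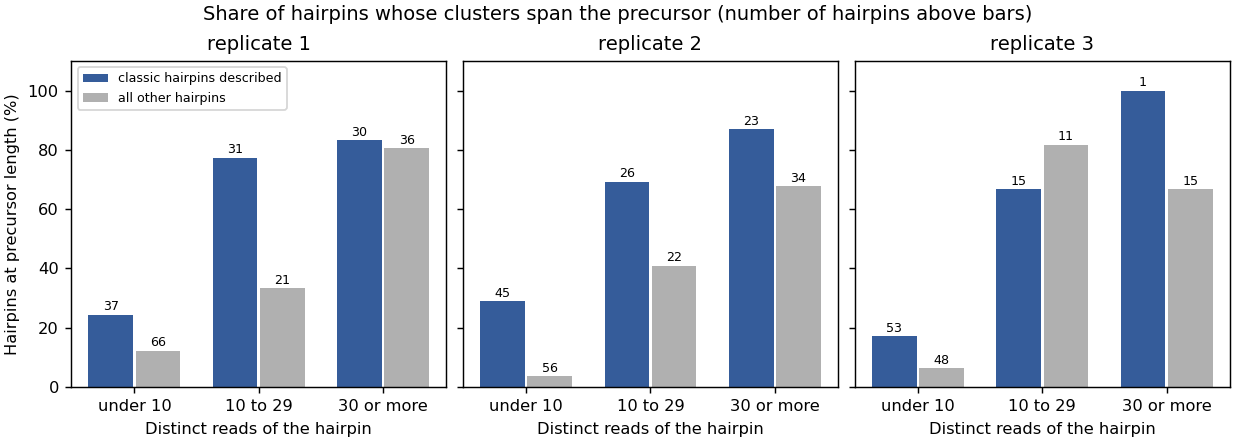
Percentage of hairpins spanned at precursor length, by distinct reads, for the hairpins described (dark bars) and all other hairpins (grey bars). Numbers above the bars count hairpins. The dark bars are higher in every bin except 10 to 29 distinct reads in replicate 3 (66.7% against 81.8%).

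Single hairpins showed the same range. The outer span of mir-21 was 62, 62 and 60 nt in replicates 1, 2 and 3, that of mir-301a was 63, 63 and 62 nt, and that of mir-342 was 67, 67 and 66 nt. It was 60, 60 and 31 nt for mir-378a, and mir-181b-1 spanned 64, 63 and 35 nt, so only replicate 3 was short. mir-146a spanned 37, 37 and 36 nt. Of 61 hairpins in all 3 replicates with both mature miRNAs known, 15 were at precursor length in all 3, 21 in replicates 1 and 2 but not 3, and 9 in none.

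Coverage of the arms was read in 63 hairpins with a single series-wide cluster of precursor length, an arm counting as covered when at least 10 nt of it lay in a cluster. That cluster combines reads of these same replicates and already spans both arms. The choice therefore favours hairpins with both arms covered and leaves out those covered on 1 arm only, so the counts describe only the 63. In replicate 1 both arms were covered in 50 of 62 listed hairpins, with the 5p arm alone in 6 and the 3p arm alone in 6. In replicate 2 both were covered in 43 of 59, with the 5p arm alone in 15 and the 3p arm alone in 1. In replicate 3 both were covered in 17 of 47, with the 5p arm alone in 20 and the 3p arm alone in 10. Where both arms were covered, they lay in separate clusters in 1, 4 and 8 hairpins in replicates 1, 2 and 3. Of 5 hairpins with a single arm in both replicates 2 and 3, 4 had the same arm. mir-659 had the 5p arm alone in replicates 1 and 2 and the 3p arm alone in replicate 3.

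Each cluster carries 1 marked position, named ccr in the files, whose meaning the files do not define. It could be placed in 56 of these precursors by setting the 5′ end of a series-wide cluster of precursor length at the first base of the 5p miRNA. The position fell on a uridine in 44 of 56 precursors (78.6%), while uridines made up 10 to 18 of the 56 at each of the 10 positions up to 5 nt to either side. In the other hairpins it fell on a uridine in 28 of 39 (71.8%). No test was made, since the authors' clusters are built on T-to-C conversions.

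**Figure D4:**
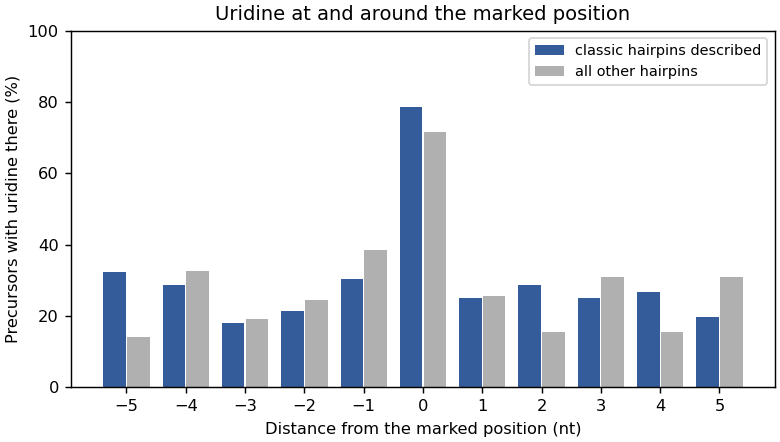
Percentage of precursors with a uridine at the marked position (0) and up to 5 nt to either side of it, for the hairpins described (dark bars) and all other hairpins (grey bars). Both groups peak at 0, at 78.6% and 71.8%.

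Of the 44 marked uridines, 17 lay in the 5p arm, 19 in the loop and 8 in the 3p arm. In the 5p arm, 13 of the 17 were placed at the first or the second base of the precursor. Positions were counted from the 5′ end of the cluster, whose length could differ from the precursor by up to 3 nt. A base given as the first or second may therefore be off by a few nt. For these 44 precursors the uridines as a whole were split 36.5% in the 5p arm, 30.1% in the loop and 33.3% in the 3p arm. The loop between the mature miRNAs had a median of 16 nt. Of 28 marked uridines in the other hairpins, 11 lay in the 5p arm, 12 in the loop and 5 in the 3p arm. Of those 11, 7 were at position 1 or 2, so the pattern is not particular to the hairpins described. In the precursors printed above, mir-181a-1, mir-181a-2 and mir-181c were marked in the 3p arm, at positions 53, 55 and 52 from the 5′ end. The leading member of that family, mir-181b-1, was not printed because its mark fell on a G, at position 32 in the loop. The 3p mark is therefore not shared by the whole family. Between replicates the mark also moved, by 22 nt for mir-181a-1 and 20 nt for mir-181c. mir-196a-1 and mir-196a-2 were both marked at position 29 in the loop, whereas mir-196b was marked at its first base. mir-29a and mir-29b-1 were marked in the loop, at positions 29 and 31, and mir-29c at its first base. mir-29b-2, likewise not printed, was marked on a C at position 33 in the loop. mir-342 was marked at position 56 in the 3p arm.

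**Figure D5:**
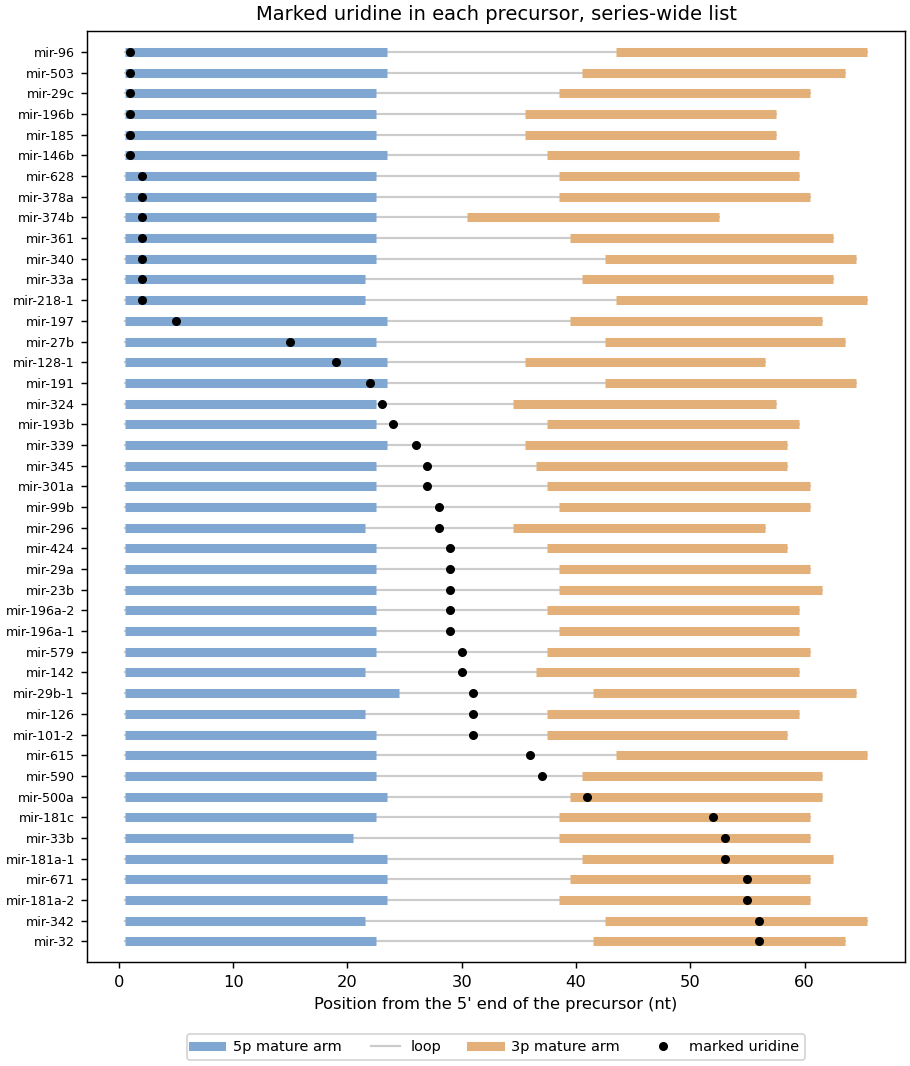
Position of the marked uridine (black point) along each of 44 precursors, in nt from the first base of the 5p miRNA, with the 5p arm in blue, the loop as a thin grey line and the 3p arm in orange. Points gather at the first bases of the 5p arm (13 precursors at position 1 or 2) and in the loop (19). The first base was set at the 5′ end of the cluster, whose length may differ from the precursor by up to 3 nt.

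The marked position was not stable between libraries. It was the same in all 3 replicates for 19 of the 82 hairpins (23.2%), against 38 of 78 other hairpins (48.7%), and it differed in each for 16 of the 82, against 10 of 78. For a hairpin with several clusters, the position of the cluster with the most conversions was used. Among hairpins with 1 cluster in every replicate, it was the same for 16 of 61, against 25 of 59 other hairpins. Where replicates differed, the positions were a median of 24 nt apart, against 14 nt for the other hairpins. The 19 included mir-10a, mir-10b, mir-33a, mir-424 and mir-766. The number of conversion positions in the cluster was also set against the number of uridines in the precursor. The median ratio was 47.5% for the 56 precursors (11.8% to 94.4%), against 63.2% in the other hairpins (18.2% to 104.8%). The highest was mir-20a, with 22 conversion positions for 21 uridines. Conversion positions were not matched to uridines, and cluster and precursor could differ by up to 3 nt. The ratio is therefore not the share of uridines converted. Distinct reads differ between these groups too, and their part in this ratio or in the stability of the marked position was not tested.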

How the data were processed

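Values came from 4 cluster lists deposited by the authors, 1 per replicate and 1 series-wide. Per the submitters' processing notes reads were aligned with Bowtie2 2.1.0 to hg19. Per the file attributes, clusters have an estimated FDR of 5%, a length filter was applied to each replicate list, and series-wide clusters had reads from 2 or 3 replicates. The sources used here give no version of the cluster program. The authors deposited a count of T-to-C conversions per cluster, not normalised, and an entropy score, which was not used.

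Here counts were summed per hairpin name and given as shares of listed totals (Python 3.11.15, numpy 2.4.6, scipy 1.17.1, matplotlib 3.10.9). Summation was tested on simulated data and recovered 100% of the sums. Differences over replicates had exact two-sided sign-flip tests. Families and tissue lists were written by hand. Their members were chosen with earlier results of these data known, whereas the hairpins described follow the naming rule given at the start. Clusters were matched to RefSeq precursors by length, never by coordinates across builds. The named hairpins, apart from members of described families, runs and tissue lists, are the 20 leading ones by either measure, the 3 leading in each family or run of 3 or more, the 3 extremes in conversions per distinct read and between replicates, and the 3 leading ones found in 1 replicate. Not every hairpin this rule gives is described in the text, and 1 of them is not reported here. Alternatives left out replicates, raised the minimum to 3 distinct reads, used the series-wide list, moved the precursor tolerance to 1 or 5 nt, or shortened the run gap to 3 kb.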

Additional observations from a re-analysis of the deposited data

Results flagged for a closer look

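Clusters lying antisense to a hairpin, outside the sense-strand measurement, were found at mir-328 (7 conversions in replicate 1), mir-610 (11 conversions in the series-wide list) and mir-942 (12 conversions in the series-wide list and 4 in replicate 2). They are given because signal appeared where no sense hairpin is annotated, and no control library was at hand to set a background.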

How the results depend on the processing

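No paired analysis was possible because the study has a single group. No result changed direction. The count of hairpins in all 3 replicates, 82, was 85 to 109 when 1 replicate was left out and the other 2 were required, it was 55 with at least 3 distinct reads per cluster, and it compares with 132 names in the series-wide list. The mean share at precursor length, 47.5% over replicates, was 72.4% in the series-wide list 41.6% to 56.7% without 1 replicate, and 31.9% within 1 nt. The share with the same marked position, 23.2%, was 36.5% to 45.9% when only 2 replicates had to share it, by construction an easier condition. Without 1 replicate, the share of hairpin conversions was 10.3% to 14.4% and the share of hairpin distinct reads 27.8% to 31.4%. Their difference was 15.4 to 17.5 points, the leading 10 held 35.4% to 39.6% of conversions and 28.3% to 30.9% of distinct reads, and the log2 difference in conversions per distinct read was 0.04 to 0.26. The mir-374 family held 8.30% to 9.94%, the runs held 27.2% to 29.4%, and the difference in precursor-length share was 11.3 to 23.7 points. Of 275 settings for 47 named hairpins, 274 stayed within 1 SD; the exception was mir-29b-2, at 0.0519% with at least 3 distinct reads. The smallest p that 3 replicates allow is 0.25, so no difference could pass 0.05.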

Other observations

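The 3 hairpins with the most conversions among those listed in 1 replicate only were mir-708 with 73 and mir-491 with 53, both in replicate 1, and mir-190b with 36 in replicate 3. The cluster of mir-708 spanned 69 nt, from 15 distinct reads, and that of mir-491 spanned 56 nt, from 4. mir-769 had 711, 281 and 125 conversions in replicates 1, 2 and 3, with clusters spanning 62, 46 and 63 nt.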
